A study of Homo sapiens with 10 samples.

Results

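CREB5 and 7 further members of the CREB and ATF family of transcription factors were followed through 10 RNA-seq libraries. CREB5 was chosen by its rise after H2O2 in these data, and CREB1, CREM, ATF1, ATF2, ATF7, CREB3 and CREB3L2 were added by kinship to it. They are 8 of the 59453 genes counted. Because CREB5 was selected on the comparison of treated with untreated cells, that comparison is given for the 8 genes as values only, with no test.

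The libraries were made from HAP1, a near-haploid, adherent human line that was derived from the KBM-7 leukaemia line. The untreated groups were wild type (WT, clones 2 and 11), cells without the adenine DNA glycosylase MUTYH (MUTYH KO, clones 7 and 8), cells without the 8-oxoguanine DNA glycosylase OGG1 (OGG1 KO, clones 1 and 22) and cells without both (DKO, clones 4 and 14). The knockouts are insertions or deletions made with CRISPR-Cas9, and the study's supplement names an OGG1 KO clone as the parent of both DKO clones, so these are not independent edits of the WT background. The treated group was the same 2 WT clones given 100 µM H2O2 for 24 h.

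The proteins of this family carry a basic leucine zipper: the zipper joins 2 proteins into a dimer and the basic stretch beside it reads the DNA. CREB1, CREM and ATF1 form the classical cAMP branch. They sit on the palindromic cAMP response element (CRE), and phosphorylation by protein kinase A and other kinases lets them recruit the coactivators CREBBP and EP300. CREB5, ATF2 and ATF7 form a second branch, which pairs with JUN and answers to stress-activated MAP kinases. CREB3 and CREB3L2 are made as membrane proteins and are released by cleavage in the Golgi apparatus.

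The sequences around the start sites show which of these genes carry such elements themselves. RefSeq windows on GRCh38.p14, from 250 bases before to 50 bases after a start site, were found for 7 of the 8 genes. ATF2 had none. Both strands were searched for the full CRE (TGACGTCA), for its core (TGACG), which also lies inside each full CRE, and for the AP-1 element of JUN and FOS dimers (TGAGTCA, which reads TGACTCA on the other strand). Of 35116 windows of all genes, 1.85% held the full CRE, 24.6% the core and 4.95% the AP-1 element. Counted per gene, with a match in any of its windows, the shares were 2.25%, 28.4% and 6.05% of 27305 genes. A gene with more windows has more room for a match. The full CRE was present in a window of CREB3L2 and in overlapping windows of an internal start site of CREM. The AP-1 element was present in the third of the 3 windows of CREB5. These 3 stretches are shown because they are the only full CRE and AP-1 matches among the 8 genes, with the match in capitals.
CREB5, chr7:28686063-28686122, plus strand: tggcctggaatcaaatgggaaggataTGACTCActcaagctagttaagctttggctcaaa
CREB3L2, chr7:138002232-138002291, minus strand: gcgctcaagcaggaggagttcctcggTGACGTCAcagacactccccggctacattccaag
CREM, chr10:35195826-35195885, plus strand: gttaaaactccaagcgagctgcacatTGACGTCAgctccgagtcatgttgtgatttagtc

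The AP-1 element of CREB5 began 44 bases before the start site, at position -44. In CREB3L2 the CRE began at -179. In CREM it began at -50 from one internal start site and at 2 from another. CREM has several internal start sites, and an internal promoter is known for giving rise to ICER, a group of short repressors induced through CREs. Which of these start sites gives rise to ICER was not examined, so the stretch shown is not taken as the ICER promoter. Counts per gene do not separate ICER from full-length CREM. CREB3 and ATF7 held the core without the full element, and the windows of CREB1 and ATF1 held none of the 3 motifs. A match of letters is a description of the window and does not show that a factor was bound.

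The whole window of the third CREB5 start site, chr7:28685883-28686182 on the plus strand, is shown since it holds the only match in the 3 CREB5 windows. All 3 windows lie inside the annotated gene. None covered the annotated start of the gene at chr7:28299321, which was therefore not searched.
CREB5 window 3: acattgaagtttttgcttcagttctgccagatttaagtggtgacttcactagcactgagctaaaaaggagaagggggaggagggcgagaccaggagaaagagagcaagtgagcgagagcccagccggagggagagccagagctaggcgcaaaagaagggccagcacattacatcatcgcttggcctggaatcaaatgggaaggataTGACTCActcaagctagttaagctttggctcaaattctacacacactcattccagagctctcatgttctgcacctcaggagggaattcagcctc

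Values are read counts per gene and CPM, which are counts scaled to a common library total after TMM normalization. Totals were 22225091 to 22674964 counts per library, and mitochondrial genes took 2.995% to 7.46% of them. As a check of the labels, OGG1 counts were 275 and 295 in WT, 27 and 254 in OGG1 KO clones 1 and 22, and 215 and 223 in DKO. MUTYH counts were 105 and 89 in WT, 101 and 83 in MUTYH KO, and 106 and 50 in DKO. A small insertion or deletion need not lower a transcript. Of 8 blood cell markers, PTPRC, SPI1, CD33, MPO, GATA1 and HBG1 were under 1 CPM in every library, CD34 reached 1.03 CPM and KIT 18.5 CPM, so most defining markers of blood cells were near 0 in this leukaemia-derived line. The untreated libraries also fell into 2 sets that crossed the genotypes and that no label names. WT clone 2, MUTYH KO clone 8, OGG1 KO clone 22 and DKO clone 14 made side A, and the other 4 made side B. In bulk RNA, a change in the number of cells that express a gene and a change in RNA per cell cannot be told apart.

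CREB5 was close to silent in untreated cells. Each WT library held 4 of its reads, MUTYH KO clones 7 and 8 held 6 and 7, OGG1 KO clones 1 and 22 held 6 each, and DKO clones 4 and 14 held 19 and 15. All 3 knockout groups lay above both WT libraries, and DKO lay above every other untreated library. In CPM, CREB5 was 0.177 in both WT clones, 0.277 and 0.310 in MUTYH KO, 0.271 and 0.266 in OGG1 KO, and 0.851 and 0.661 in DKO. At 4 counts the coefficient of variation from counting is already 50%, so the equality of the WT clones says little about their true spread.

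After H2O2, CREB5 had 201 counts in WT clone 2 and 115 in clone 11, or 9.14 and 5.06 CPM. Both treated libraries were far above their own untreated clone, and clone 2 lay above clone 11. The summed counts were 316 after treatment and 8 before it, a ratio of count rates of 39.1 (95% exact interval 19.6 to 91.4, which covers counting error only). The ratio was 50.1 (19.3 to 186) in clone 2 and 28.3 (10.7 to 105) in clone 11. The fitted log2 fold change was 5.27 ± 0.49 (SE). With clone as a block it was 5.25 ± 0.39 (SE). As this rise selected the gene, these values describe it and carry no test.

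**Figure D1:**
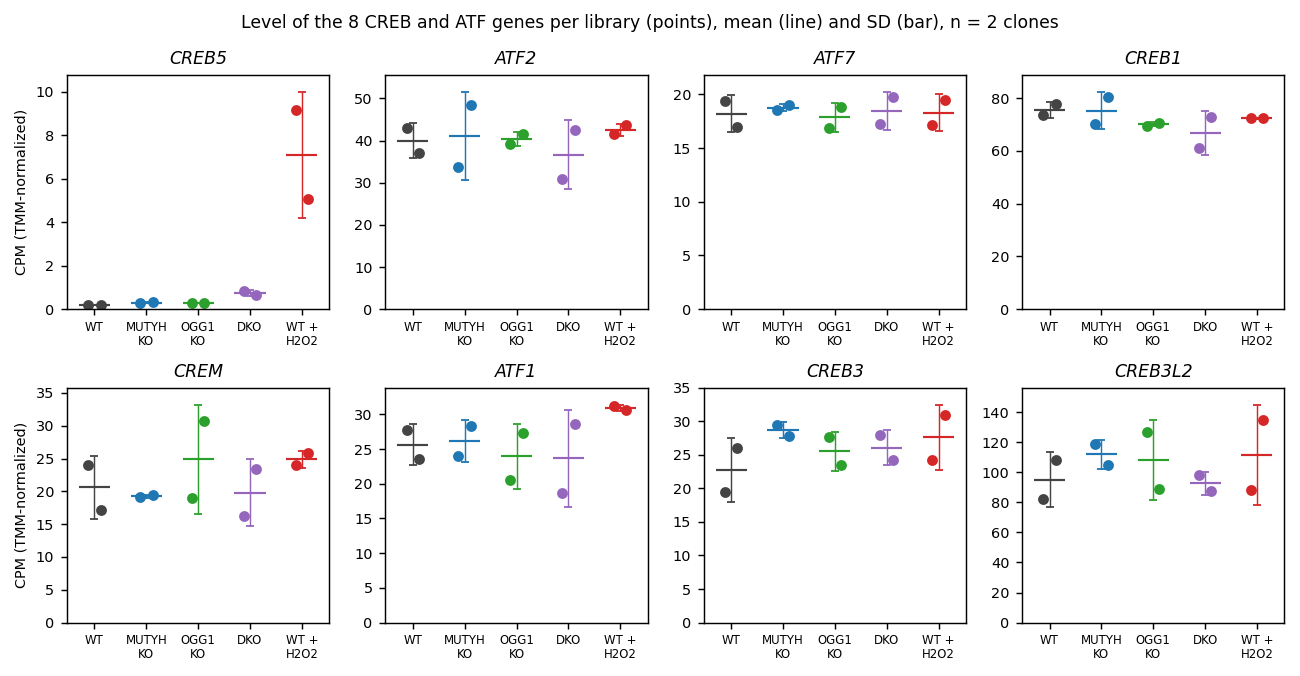
CPM of each of the 8 genes (vertical axis, TMM-normalized, starting at 0) in the 5 groups, with 1 point per clone, a line at the mean and a bar of 1 SD. CREB5 stayed at 0.177 to 0.851 CPM in the untreated clones and reached 5.06 and 9.14 CPM after H2O2, whereas each of the 7 relatives kept a like level in all groups.

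CREB5 was also higher in DKO than in the other untreated groups. It passed the filter on low counts only through the DKO libraries, and the WT controls entered its selection, so these differences are descriptions and no test is given. The log2 difference from WT was 2.06 ± 0.47 (SE), and 2.05 with no filter. In comparisons added after the values were seen, it was 1.48 ± 0.45 (SE) from OGG1 KO and 1.35 ± 0.44 (SE) from MUTYH KO. The share of all tested genes that met the study's criterion for a differentially expressed gene (DEG), which asks for a change beyond 1 on the log2 scale at an unadjusted P of 0.05 or less, was 1.77% for DKO against WT, 1.44% for DKO against OGG1 KO and 1.99% for DKO against MUTYH KO.

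In counts, the 34 of DKO stood against 8 in WT (ratio of rates 4.24, 95% exact interval 1.93 to 10.6), 12 in OGG1 KO (2.83, 1.43 to 5.99) and 13 in MUTYH KO (2.62, 1.35 to 5.41). These intervals cover counting error only and are not tests. In all 3 pairs, both DKO libraries lay above both others. The log2 difference from WT was 1.86 to 2.22 with each library left out in turn, and 2.06 with side as a block. Where every library had to hold at least 10 counts, CREB5 was not fitted.

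For the single knockouts the values of CREB5 are likewise descriptions, with no test. Its log2 fold change was 0.71 ± 0.51 (SE) in MUTYH KO and 0.59 ± 0.52 (SE) in OGG1 KO. The ratios of count rates to WT were 1.62 (95% exact interval 0.622 to 4.51) and 1.5 (0.564 to 4.23). Both intervals cover counting error only, and both hold no change, a modest fall and a rise of several times. On both sides of the library split, WT was lowest and DKO highest, and the single knockouts lay between them within 1 count of each other. The loss of MUTYH in cells without OGG1 changed CREB5 by 0.77 ± 0.70 (SE, log2) more than in cells with OGG1, also a description. The treated WT cells remained above DKO, with a ratio of count rates of 9.22 (6.46 to 13.6).

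**Figure D2:**
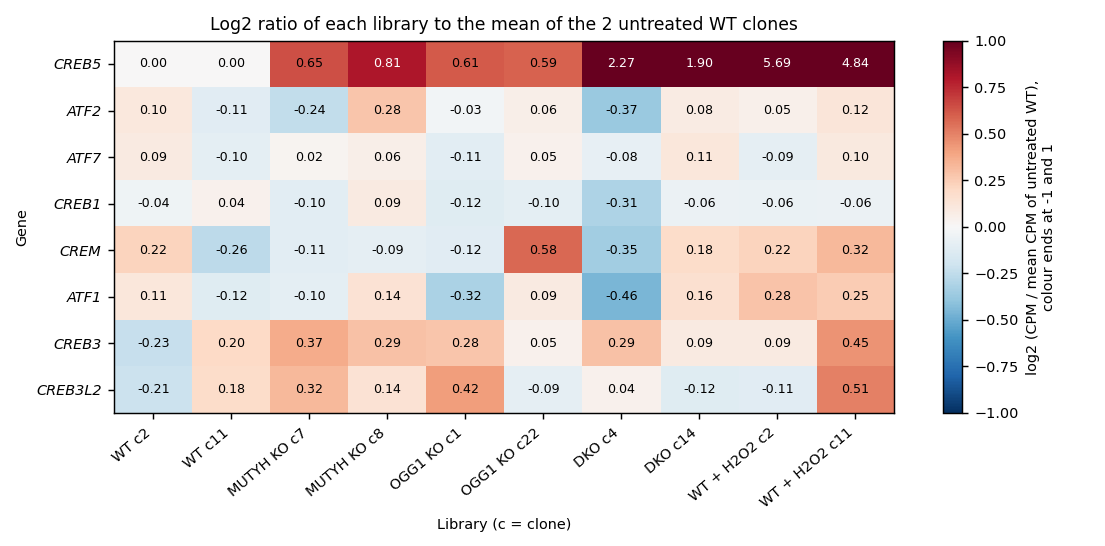
Log2 ratio of CPM in each library (columns) to the mean of the untreated WT clones, for each gene (rows), with the value printed in each cell and colour running from -1 to 1. CREB5 was above 0 in every knockout and treated library, whereas cells of the 7 relatives stayed between -0.46 and 0.58.

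The nearest relatives of CREB5 were expressed at much higher levels and moved little. ATF2, a stress-responsive partner of JUN, had 43.0 and 37.0 CPM in WT, 33.8 and 48.5 in MUTYH KO clones 7 and 8, 39.3 and 41.6 in OGG1 KO (clones 1 and 22), and 30.9 and 42.4 for DKO clones 4 and 14. It had 41.5 and 43.6 CPM in the treated clones, and every group overlapped WT. ATF7, its close paralog, was the steadiest of the 8, with 16.9 to 19.7 CPM over the untreated libraries and 17.1 and 19.5 after H2O2. The log2 fold changes of ATF2 were 0.04 ± 0.22, 0.02 ± 0.22 and -0.12 ± 0.22 (SE) in MUTYH KO, OGG1 KO and DKO, and those of ATF7 were 0.04 ± 0.17, -0.03 ± 0.17 and 0.02 ± 0.17. None met the criterion.

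The makeup of this branch shifted with CREB5. Of the counts of CREB5, ATF2 and ATF7 together, CREB5 held 0.284% and 0.327% in WT clones 2 and 11, and 0.439% to 0.528% in the single knockouts. It held 1.74% (95% exact binomial interval 1.05 to 2.70) in DKO clone 4 and 1.05% (0.591 to 1.73) in DKO clone 14. In treated cells the share was 13.5% (11.8 to 15.3) in clone 2 and 7.43% (6.17 to 8.85) in clone 11. Corrected for exon length, the treated shares were 7.72% and 4.14%, so ATF2 remained the most abundant transcript of the branch, at 71.2% and 72.5%. These are shares of transcripts, and protein was not measured here.

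**Figure D3:**
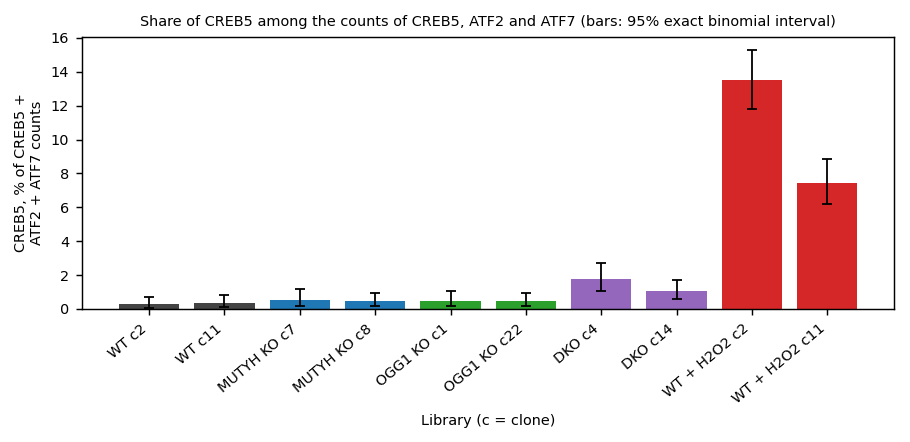
CREB5 as a percentage of the summed counts of CREB5, ATF2 and ATF7 (bars, from 0) in each library, with 95% exact binomial intervals that cover counting error only. The share was under 1% in the WT and single knockout libraries, 1.74% and 1.05% in DKO, and 13.5% and 7.43% after H2O2.

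In the cAMP branch, CREB1, its founding member, had 73.5 and 77.7 CPM in WT, 70.3 and 80.3 in MUTYH KO, 69.6 and 70.7 in OGG1 KO, and 61.0 and 72.7 in DKO. It had 72.3 and 72.5 CPM after H2O2. The OGG1 KO, DKO and treated libraries lay below both untreated WT libraries. ATF1, which forms dimers with CREB1, had 27.7 and 23.6 CPM in WT, 24.0 and 28.3 in MUTYH KO, 20.6 and 27.3 in OGG1 KO, and 18.7 and 28.6 in DKO. Its treated values of 31.2 and 30.6 CPM lay above all 8 untreated libraries, with a log2 difference from WT of 0.26 ± 0.16 (SE).

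CREM, the third member of the cAMP branch, varied most among the 7 relatives. It had 24.0 and 17.2 CPM in WT clones 2 and 11, 19.1 and 19.4 in MUTYH KO, 19.0 and 30.7 in OGG1 KO, and 16.2 and 23.4 in DKO. OGG1 KO clone 22 stood highest, 1.89 times the lowest library, DKO clone 4. After H2O2 CREM had 24.0 CPM in clone 2 and 25.8 in clone 11, so its log2 change was 0.01 in the first and 0.59 in the second. The clones thus differed before treatment and lay close together after it. The log2 fold changes in the knockouts were -0.10 ± 0.29 (MUTYH KO), 0.27 ± 0.29 (OGG1 KO) and -0.05 ± 0.29 (DKO, all SE), none of which met the criterion.

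The membrane-bound members were the most abundant per length. CREB3 had 19.4 and 26.1 CPM in WT clones 2 and 11, 29.5 and 27.8 in MUTYH KO, 27.6 and 23.5 in OGG1 KO, and 27.9 and 24.2 in DKO. MUTYH KO lay above both WT libraries, by a log2 fold change of 0.33 ± 0.20 (SE, edgeR unadjusted P of 0.146), the largest such value of the 7 relatives. With side as a block its unadjusted P was 0.0283 at a log2 fold change of 0.34, still under the fold that the criterion asks. CREB3L2, a secretory pathway regulator, had 82.1 and 108 CPM in WT, 119 and 105 in MUTYH KO, 127 and 89.2 in OGG1 KO, and 98.0 and 87.4 in DKO. After H2O2, CREB3 had 24.2 and 31.0 CPM and CREB3L2 had 88.0 and 135 CPM in clones 2 and 11, with the WT clones in the same order before and after treatment.

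Counted over the 7 relatives of CREB5, 0 met the criterion in MUTYH KO, where 1.19% of all tested genes did. In OGG1 KO, where 1.67% did, 0 met it. In DKO, where 1.77% did, the 7 relatives gave 0 calls, and the values of CREB5 lay past the criterion, from which nothing is read for the reason given above. In MUTYH KO and OGG1 KO, 0 of the 7 relatives had an unadjusted P of at most 0.05 in edgeR, and DESeq2 also called 0. The median log2 fold change of the 8 genes was 0.04, 0.09 and -0.05, beside 0.01, 0.01 and 0.00 over all tested genes. The 3 comparisons share the WT libraries. After H2O2, the log2 differences of the 7 relatives ran from -0.07 ± 0.13 (SE, CREB1) to 0.27 ± 0.23 (SE, CREB3), beside 5.27 for CREB5. The summed CPM of the 8 genes was 271 to 328 in untreated libraries, and 307 and 363 in treated WT clones 2 and 11.

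Per kilobase of exon (RPKM, union of GENCODE exons), the order of the 8 genes over the untreated libraries was CREB3 (15.8 ± 1.99, SD, n = 8), CREB3L2 (11.6 ± 1.80), ATF1 (8.78 ± 1.33), ATF2 (6.88 ± 0.974), CREB1 (5.93 ± 0.478), CREM (3.70 ± 0.827), ATF7 (2.29 ± 0.141) and CREB5 (0.0320 ± 0.0210). Down to CREB1 and CREM, the ranges of neighbours in this order overlapped, whereas CREM, ATF7 and CREB5 were separate from each other in every library. CREB5 rose to 0.608 ± 0.247 RPKM (SD, n = 2) after H2O2, which was still below the lowest library of ATF7, at 2.12 RPKM.

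The split of the untreated libraries ran through the family. CREM had 19.4 to 30.7 CPM on side A and 16.2 to 19.1 on side B. ATF1 had 27.3 to 28.6 against 18.7 to 24.0, ATF2 41.6 to 48.5 against 30.9 to 39.3, and ATF7 18.8 to 19.7 against 16.9 to 18.5. In these 4 genes every library of side A was above every library of side B. The other 4 overlapped. Over all 17881 tested genes, 29.2% did not overlap between the sides. The sides were found from the expression of all genes, so this is a description. Each side holds 1 clone per genotype, and the part of the split in the clone differences given above was not tested.

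Some reads of the 8 genes may belong to neighbours, since the strand setting of the counting is not stated. CREB1 (GRCh38 chr2:207529737-207605988) overlaps METTL21A on the opposite strand, which had 642 to 934 counts. ATF7 (chr12:53507856-53626410) overlaps the readthrough gene ATF7-NPFF on its own strand over 118124 bases, and that gene had 7 to 35 counts. CREB3 (chr9:35732598-35736999) shares 134 bases with GBA2, and CREM (chr10:35126791-35212958) shares 216 bases with CUL2. CREB5 (chr7:28299321-28825894) overlaps a processed pseudogene of 792 bases on the other strand. CREB3L2 (chr7:137874979-138002086), ATF1 (chr12:50763710-50821162) and ATF2 (chr2:175072250-175168382) overlap non-coding genes or pseudogenes.

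Several bZIP relatives and partners of the family were higher after H2O2. This list and those of the next paragraphs were chosen with earlier results of these data known. Their counts and p-values are therefore descriptions and not independent tests. Of 22 listed genes, 19 were tested, and 6 rose while 0 fell, beside 1.75% of all tested genes. They were FOSL2, ATF5, JUN, ATF3, FOSL1 and FOS. The median log2 fold change of the list was 0.26, beside 0.00 over all genes. With clone as a block, 2.78% of all genes met the criterion and 2.57% had an adjusted p of at most 0.05, and 5 of the 6 did.

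FOSL2, a FOS-like partner of JUN, went from 1.46 and 2.92 CPM in WT clones 2 and 11 to 8.59 and 10.8 after treatment, a log2 fold change of 2.14 ± 0.40 (SE, edgeR adjusted p of 0.638, and 0.00101 with clone as a block). JUN, the common AP-1 partner, went from 11.4 and 6.73 to 21.8 and 28.4 CPM, by 1.47 ± 0.31 (SE, edgeR adjusted p of 0.638, and 0.00752 with the block). ATF3, a stress-induced factor, went from 23.2 and 10.2 to 55.3 and 38.4 CPM, by 1.48 ± 0.41 (SE, edgeR adjusted p of 0.638, and 0.000534 with the block). In these 3 genes, both treated libraries were above both untreated ones. ATF5 rose from 48.7 and 37.4 to 94.0 and 97.1 CPM, and FOSL1 from 22.3 and 12.6 to 49.4 and 28.3 CPM. FOS, at 1.77 and 1.42 CPM before and 2.55 and 5.37 CPM after treatment, had an edgeR adjusted p of 0.0821 with the block. The count of 6 fell to 3 without untreated WT clone 11 and to 3 without treated WT clone 11.

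In the knockouts this list gave 1 call in MUTYH KO, 0 in OGG1 KO and 3 in DKO out of 19 tested, beside 1.19%, 1.67% and 1.77% of all tested genes, all upward and all with an edgeR adjusted p of at least 0.999. FOSL2 had 5.22 and 7.18 CPM in MUTYH KO and 5.87 and 4.85 in DKO, all above both WT libraries, for log2 fold changes of 1.49 ± 0.41 and 1.29 ± 0.41 (SE). FOSB, another FOS-like gene, had 1.06 and 1.51 CPM in WT and 3.98 and 2.29 in DKO. CREB3L1, the sister gene of CREB3L2, had 2.13 and 3.46 CPM in WT and 5.60 and 6.70 in DKO. In OGG1 KO, 1 gene of the list had an unadjusted P of at most 0.05 in edgeR, and DESeq2 also called 0. Without WT clone 2 the count in DKO was 0, and without DKO clone 4 it was 1. In OGG1 KO it was 1 without WT clone 11 and 1 without OGG1 KO clone 1.

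Genes that control CREB activity, namely its kinases, coactivators and the enzymes that make and break down cAMP, were called at shares near those of all genes. Of 36 listed, 31 were tested in the treatment, where 0 met the criterion in edgeR or DESeq2, beside 1.75% of all tested genes, and 1 had an unadjusted P of at most 0.05 in edgeR. With clone as a block, PRKAR1B, a regulatory subunit of protein kinase A, was higher by 0.83 on the log2 scale (edgeR adjusted p of 0.00696). In the genotypes 30 were tested, with 0, 1 and 1 calls in MUTYH KO, OGG1 KO and DKO by either tool, beside 1.19%, 1.67% and 1.77% of all tested genes, and 0 at an unadjusted P of at most 0.05 in MUTYH KO by edgeR. ADCY1, an adenylyl cyclase, had 8.83 and 4.74 CPM in WT and 2.12 and 2.0 in OGG1 KO, a log2 fold change of -1.71 ± 0.51 (SE, edgeR adjusted p of 0.999). PDE4B, a cAMP phosphodiesterase, had 4.03 and 3.44 CPM in DKO and 0.0887 and 1.51 in WT, where clone 2 had 2 counts. These single calls depended on libraries. The OGG1 KO count was 0 without WT clone 2 or OGG1 KO clone 22 and 2 without WT clone 11, and the DKO count was 0 without OGG1 KO clone 22 or either DKO clone. The MUTYH KO count was 1 without WT clone 11 or MUTYH KO clone 7, and the treatment count was 1 without WT clone 11.

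Known target genes of CREs were examined next after H2O2. This list too was chosen with earlier results of these data known, so its counts and p-values are descriptions. Of 27 listed genes, 18 were tested, 5 rose and 0 fell, beside 1.75% of all tested genes, with a median log2 fold change of 0.42. With clone as a block 6 met the criterion, and 6, with PER2 in place of NR4A3, had an adjusted p of at most 0.05. PTGS2, the inducible cyclooxygenase, went from 0.887 and 0.975 CPM to 14.6 and 9.60, by 3.68 ± 0.34 (SE, edgeR adjusted p of 0.233, and 3.19e-05 with the block). VGF, a secreted neuropeptide precursor, went from 1.15 and 3.81 to 8.05 and 34.9 CPM, by 3.10 ± 0.86 (SE, edgeR adjusted p of 0.638, and 2.68e-05 with the block). Both genes rose in each clone, and VGF kept the difference between the clones. EGR1, an immediate early transcription factor, RGS2, a brake on G protein signalling, and MAFF, a small MAF factor, rose by 1.43 ± 0.43, 1.09 ± 0.34 and 1.25 ± 0.29 (SE, log2). The count of 5 was 3 without treated WT clone 11.

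The same target list gave 1 call in MUTYH KO, 1 in OGG1 KO and 3 in DKO out of 18 tested, beside 1.19%, 1.67% and 1.77% of all tested genes, with edgeR adjusted p of at least 0.999. EGR1 had 13.4 and 10.6 CPM in WT and 3.46 and 4.48 in MUTYH KO, a log2 fold change of -1.60 ± 0.25 (SE). NR4A2, a nuclear receptor, had 13 and 12.4 CPM in WT and 4.88 and 3.64 in OGG1 KO, a log2 fold change of -1.57 ± 0.47 (SE). In DKO the direction was upward, with VGF at 16.9 and 5.38 CPM, RGS2 at 11.6 and 9.88 CPM and PDK4 at 0.448 and 0.485 CPM, beside 0.133 CPM of PDK4 in both WT clones. PDK4, a kinase of pyruvate dehydrogenase, rested on 10 and 11 counts in DKO and had at most 6 in the other untreated libraries. Its call is therefore not a test of that difference. The count of 3 in DKO includes PDK4, so nothing is read from that count beside the 1.77%. The DKO count was 0 without WT clone 2 and 1 without DKO clone 4. The MUTYH KO count was 2 without WT clone 11 or MUTYH KO clone 8. The OGG1 KO count ran from 0, without OGG1 KO clone 22, to 3, without either DKO clone, and was 2 without WT clone 11, MUTYH KO clone 7 or MUTYH KO clone 8. Of the 20 target genes with start site windows, 7 held the full CRE, beside 2.25% of all genes with windows. They were DUSP1, CCNA2, VGF, SST, CGA, AREG and MAFF. As the list was made of known CRE targets, this excess follows from its choice. Among the target genes named above as higher after H2O2, PTGS2, EGR1, RGS2, PER2 and NR4A3 held the core only.

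**Figure D4:**
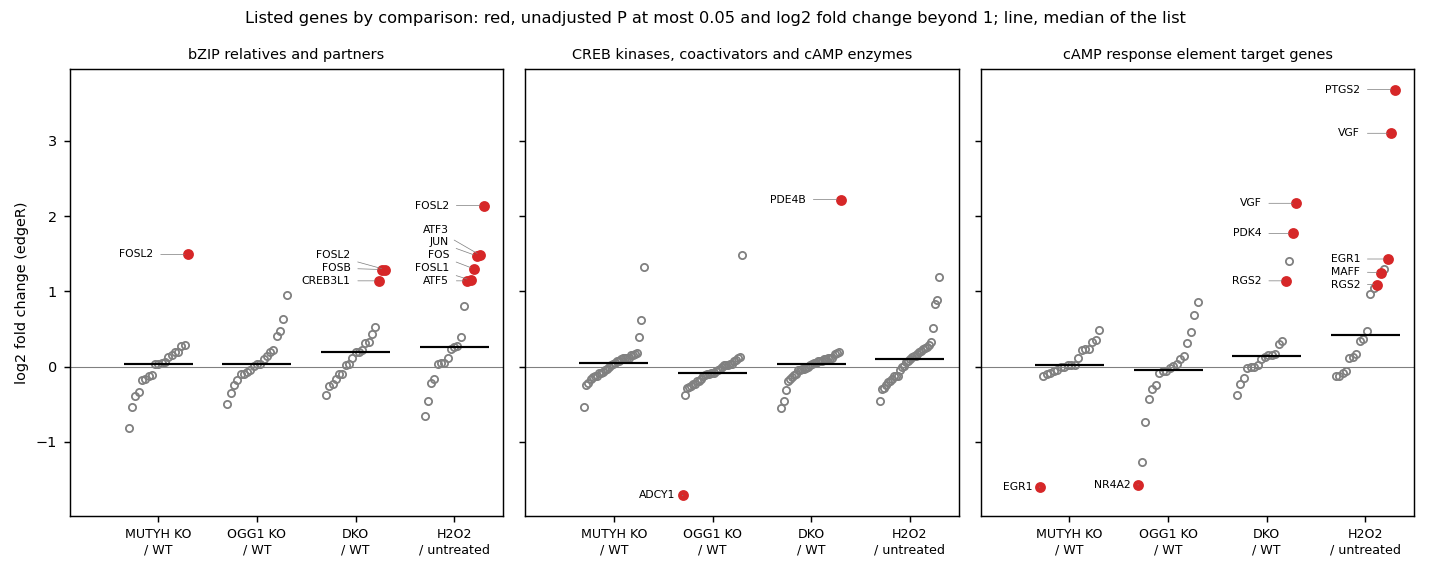
Log2 fold changes (vertical axis, edgeR) of the tested genes of each list (panels) in the 4 comparisons, with genes meeting the criterion in red and named, the others as open circles and the list median as a line. After H2O2, 6 bZIP genes and 5 target genes rose and 0 fell, and the kinases and cAMP enzymes gave 0 calls. The lists were chosen with earlier results of these data known.

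The genes whose log2 CPM followed CREB5 most closely over the 10 libraries, among 15675 genes with at least 1 CPM in at least 2 libraries, were CCDC173 and SESN2 (Pearson r = 0.967 each), ZNF654 (0.959), KLHDC7B (0.958) and YRDC (0.953). This is a description of 10 libraries, of which the treated pair carries most of the range, and the libraries share clones. SESN2, a stress-induced sestrin, had 868 and 728 counts in WT, 942 and 1041 in DKO, and 1899 and 1692 after H2O2. KLHDC7B counted 1 and 0 reads in WT, 3 and 2 in DKO, and 55 and 51 after H2O2. KLHDC7B had at most 3 counts in any untreated library, and CCDC173 had 7 to 12, beside 38 and 27 after H2O2. Both genes passed the filter of 1 CPM only through the treated pair, by which CREB5 was chosen. Nothing is read from their likeness to CREB5. The 7 relatives had r of -0.154 (CREB1) to 0.450 (ATF1) with CREB5.

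Over the 8 untreated libraries the 5 closest genes were others, namely USP53 (r = 0.959), DHRS2 (0.958), SYT13 (0.952), GDF15 (0.942) and PHLPP1 (0.938), among 15496 genes. GDF15, a secreted stress cytokine, counted 10 and 8 reads in WT, 12 and 11 in MUTYH KO, 19 and 30 in OGG1 KO, 142 and 101 in DKO, and 537 and 291 after H2O2. DHRS2, a short-chain dehydrogenase, had 31 and 38 in WT, 304 and 257 in DKO, and 384 and 209 after H2O2. In both genes the DKO libraries stood above the other untreated ones and treated clone 2 above treated clone 11, as for CREB5. For GDF15 both treated libraries lay above DKO, whereas for DHRS2 treated clone 11 lay below both DKO libraries. SYT13 had 1 to 4 counts in the other untreated libraries, 29 and 27 in DKO, and 7 and 4 after H2O2. It passed the filter of 1 CPM only through the DKO pair, and GDF15 would not have passed without that pair. Nothing is read from the likeness of these genes to CREB5. In these 8 libraries the DKO pair carries most of the range of CREB5.

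**Figure D5:**
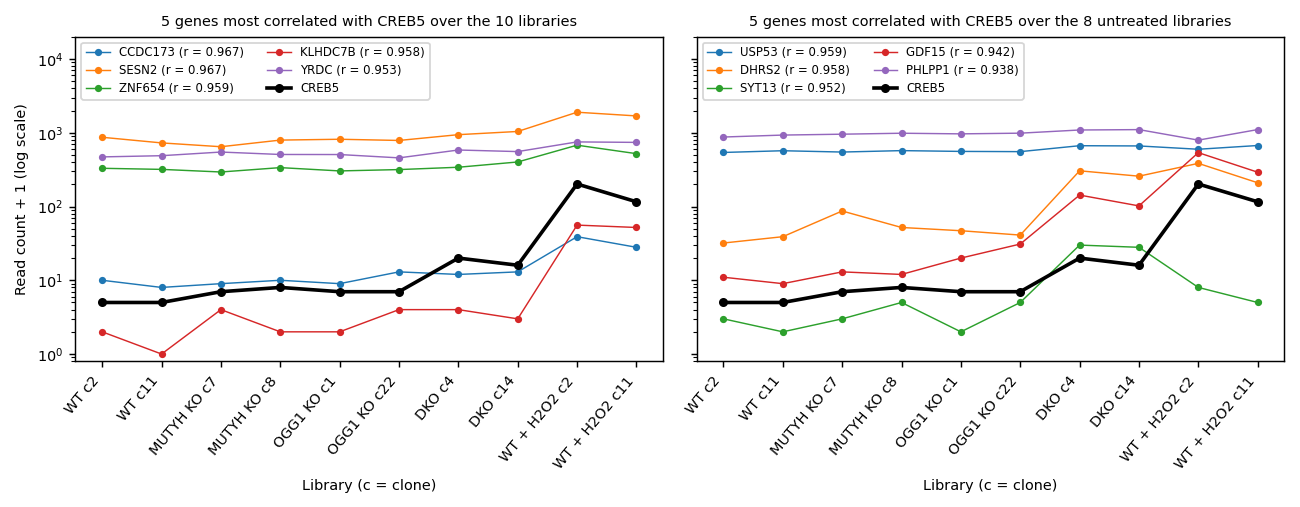
Read counts plus 1 (vertical axis, log scale) by library for CREB5 (black) and the 5 genes with the highest Pearson r to it over 10 libraries (left) or over the 8 untreated libraries (right). CREB5 ran from 4 counts in WT to 19 and 15 in DKO and to 201 and 115 after H2O2, and GDF15 on the right was likewise higher in DKO than in the other untreated libraries and highest after H2O2.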

How the data were processed

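The deposited tables hold whole-number read counts per gene, not normalized by the authors. Per the methods and processing notes, reads were checked with FastQC 0.11.9, mapped with HISAT2 2.2.1 on GRCh38 and assigned by Rsubread to genes of Ensembl release 103. The strand setting and the treatment of multi-mapping reads are not given in the sources used here. The untreated WT columns, present in both tables, were identical and used once. Counts were tested in R 4.3.3 with the quasi-likelihood F test of edgeR 4.0.16 (TMM, filterByExpr, legacy=TRUE), following the study's methods. The 8 untreated libraries made 1 fit (17881 genes, 4 residual degrees of freedom) and the 4 WT libraries another (16997 genes, 2 residual degrees of freedom). P values are two-sided and adjusted by Benjamini-Hochberg over all tested genes, and SE derive from the F statistic. With 2 clones per group, p-values of the fits without a block measure the spread between clones, pooled over the groups of the fit. A block for clone or side takes out that mean difference first, so those p-values measure what remains. The DKO clones share an OGG1 KO parent, so their spread is not that of independent edits. The script was tested on simulated counts. CPM are TMM-normalized, log2 CPM use a prior count of 2, and exact intervals at 95% cover counting error only.

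The members and lists were chosen with earlier results of these data known. All 8 genes were named. Of each list, genes meeting the criterion were named, up to 6 per comparison by P. Another 5 genes were named by correlation with CREB5 over the 10 libraries. The 5 named by correlation over the 8 untreated libraries were an addition to the planned naming. PRKAR1B, PER2 and NR4A3 were named after their values were seen.

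Treated and untreated WT libraries are paired by clone, per the labels, and the difference between the clones correlated before and after treatment (r = 0.681 across 16997 genes). The study used no block, and a fit that adds clone (1 residual degree of freedom) is given beside it. The 2 sides of the untreated libraries are the signs of the first principal component. Alternatives were DESeq2 1.42.0, its size factors, edgeR with legacy=FALSE, other filters, other sets of libraries and each library left out.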

Additional observations from a re-analysis of the deposited data

How the results depend on the processing

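The log2 difference of CREB5 between DKO and WT, a description, was 1.86 to 2.22 with 1 library left out, where a lone library is assumed to vary like the other groups. With at least 10 counts in every library CREB5 was not fitted, so that 0 of the members met the criterion in DKO and 0 lay beyond the fold after H2O2. Leaving out 1 library turned the sign of the following fold changes, none of which met the criterion. In MUTYH KO the ranges were -0.09 to 0.14 (ATF1), -0.24 to 0.26 (ATF2), -0.05 to 0.13 (ATF7), -0.10 to 0.07 (CREB1) and -0.32 to 0.15 (CREM). In OGG1 KO they were -0.31 to 0.08 (ATF1), -0.08 to 0.12 (ATF2), -0.11 to 0.06 (ATF7), -0.04 to 0.40 (CREB3), -0.11 to 0.43 (CREB3L2) and -0.10 to 0.57 (CREM). In DKO they were -0.46 to 0.15 (ATF1), -0.37 to 0.08 (ATF2), -0.09 to 0.11 (ATF7), -0.01 to 0.43 (CREB3), -0.23 to 0.18 (CREB3L2) and -0.35 to 0.20 (CREM).

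The number of genes meeting the criterion in MUTYH KO, OGG1 KO, DKO and H2O2 was 212, 299, 317 and 298. It was 532, 692, 705 and 510 with no filter, and 86, 123, 134 and 195 with at least 10 counts in every library, which tests fewer genes. It was 154 for H2O2 with DESeq2. Leaving out 1 library gave 117 to 702 (MUTYH KO), 165 to 806 (OGG1 KO), 260 to 673 (DKO) and 217 to 497 (H2O2). The highest values were without WT clone 11 in the knockouts and without WT clone 2 for H2O2, and the cause was not tested. With the WT clones paired, clone as a replicate block gave 473 for H2O2, and no call of a listed gene was lost.

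For the bZIP list, leaving out 1 library gave 0 to 1 calls in OGG1 KO, 0 to 3 in DKO and 3 to 6 after H2O2. For the kinase list it gave 0 to 1 in MUTYH KO, 0 to 2 in OGG1 KO, 0 to 1 in DKO and 0 to 1 after H2O2, the DKO call was 0 with at least 10 counts and 0 with only both compared groups fitted, and H2O2 gave 1 with no filter. For the target list it gave 1 to 2 in MUTYH KO, 0 to 3 in OGG1 KO, 0 to 3 in DKO and 3 to 6 after H2O2. With no filter MUTYH KO gave 2 and OGG1 KO 3, and with only both compared groups fitted OGG1 KO gave 2. At 4 counts per WT library, the exact interval of the CREB5 ratio of DKO to WT, 1.93 to 10.6, covers counting error only. It leaves out the spread between clones and is not a test.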
